A study of Mus musculus with 75 samples.

Results

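Inhibitory neurons release the neurotransmitter GABA and are told apart by a set of marker genes. The 33 genes described here are such markers, taken as a list by name: Gad1, Gad2, Slc32a1, Dlx1, Dlx2, Dlx5, Dlx6, Lhx6, Sox6, Satb1, Maf, Npas1, Prox1, Sst, Vip, Npy, Cck, Crh, Tac1, Pvalb, Calb1, Calb2, Erbb4, Htr3a, Cnr1, Elfn1, Adarb2, Nos1, Chodl, Lamp5, Reln, Ndnf and Nxph1. Each was matched by its Ensembl identifier, and 33 of 33 were found among the 37310 gene identifiers of the cortex and nuclei files and among the 55487 of the hippocampus files.

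GABA is made from glutamate by the glutamate decarboxylases and is loaded into synaptic vesicles by a dedicated transporter. The inhibitory neurons of the cortex arise in the ventral forebrain, where Dlx and Lhx6 transcription factors specify them, and the mature cells fall into classes named for parvalbumin (Pvalb), somatostatin (Sst), vasoactive intestinal peptide (Vip) and Lamp5. Several members are known from other cells too: Cck, Cnr1, Calb1, Lamp5, Reln and Satb1 are also expressed in excitatory neurons, Prox1 in dentate granule cells, and Sox6 and Maf in non-neuronal cells. DNMT3A is a DNA methyltransferase that adds methyl groups to cytosine, including cytosine outside CG pairs, which neurons gain after birth. The gene has a longer product, DNMT3A1, and a shorter product, DNMT3A2, which lacks the N-terminal part.

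RNA sequencing of C57BL/6 mice at postnatal day 21 gave 26 libraries in 10 groups. In cortex, 3 Dnmt3a1-/- libraries were compared with 3 wild type libraries whose titles carry a plain number (the plain series). The 2 Dnmt3a2-/- libraries were compared with the 2 wild type libraries numbered with an r (the r series), and the 3 Dnmt3a1_delta_N libraries with the 3 numbered with an n (the n series). In hippocampus there were 3 wild type and 3 Dnmt3a1-/- libraries, and in sorted cortical neuron nuclei 2 wild type and 2 labelled Dnmt3a1-/-. The labels name no Cre driver, and whether each library is a different mouse is not stated, so a p-value here describes the spread among libraries, which may be technical. The assignment of the r and n series to their mutants follows the numbering used in the rule for these genes, since the labels give the same genotype for all 8 wild type cortex libraries.

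Gene totals, in units of 1e6 reads per library, ran from 8.68 to 39.0. The line for reads of too low alignment quality was 0 in 12 libraries (plain series, cortex Dnmt3a1-/- and all hippocampus) and above 0 in the others. What set these apart was not tested. Levels below are counts per 1e6 (CPM) of reads assigned to genes. As a check of the labels, Dnmt3a itself was 152, 165 and 146 CPM in the plain wild type cortex and 73.2, 80.7 and 74.0 CPM in Dnmt3a1-/- cortex. It fell by 1.04 on the log2 scale in Dnmt3a1-/- hippocampus. In nuclei it was 405 and 399 CPM in the wild type and 382 and 369 CPM in the libraries labelled Dnmt3a1-/-, a log2 fold change of -0.10 ± 0.15 (SE, edgeR adjusted p = 0.894), so the drop seen in both tissues was not found in the nuclei. In Dnmt3a2-/- cortex it was 132 and 144 CPM and in Dnmt3a1_delta_N 135, 139 and 139 CPM. A count over the whole gene cannot check the removal of a part of it.

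In Dnmt3a1-/- cortex, 9 of the 33 markers were lower than in wild type and 0 were higher. The 9 were Ndnf, Calb1, Crh, Cnr1, Lamp5, Cck, Nxph1, Gad2 and Reln, with log2 fold changes between -0.64 and -0.30. None of the 10 transcription factors passed the test, and Pvalb, Sst and Vip, which name 3 of the main classes, did not pass it either. A gene was called at a Benjamini-Hochberg adjusted p under 0.05 over all 15933 genes tested with edgeR's quasi-likelihood test. Of all those genes 17.9% were called, 8.91% lower and 8.95% higher, beside 27.3% of the markers. The median log2 fold change was -0.13 over the markers and 0.01 over all genes, with 25 markers below 0 and 8 above. The libraries of the 2 groups did not overlap for 11 markers, all lower, and for 0 higher ones, beside 17.7% and 18.4% of all genes. DESeq2's Wald test called the same 9 and no other marker, and at an unadjusted p under 0.05 there were 11 lower and 0 higher, beside 32.4% of all genes in either direction. In whole tissue, fewer cells of a type and less RNA per cell cannot be told apart. The counts also do not show which cells the RNA came from. Of the called markers, Calb1, Cck, Cnr1, Lamp5 and Reln are also expressed in excitatory neurons.

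Same-numbered libraries deviated together from their group means in this comparison, which was taken as pairing. The labels do not state a pairing, and it was read from the same counts that were tested. With the replicate number as a block in edgeR, 13 markers were lower and 1 was higher, beside 16.0% and 15.1% of all genes. The calls added were Gad1 at an adjusted p of 0.00213, Slc32a1 at 0.0171, Sst at 0.0315, Vip at 0.0416 and, upward, Htr3a at 0.0408. Left without replicate 3 of the wild type, 5 markers stayed lower (Calb1, Cck, Crh, Ndnf and Nxph1), beside 4.65% of all genes called lower and 9.86% in either direction in that fit. The log2 fold changes of the 33 markers with their standard errors are plotted by role.

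**Figure D1:**
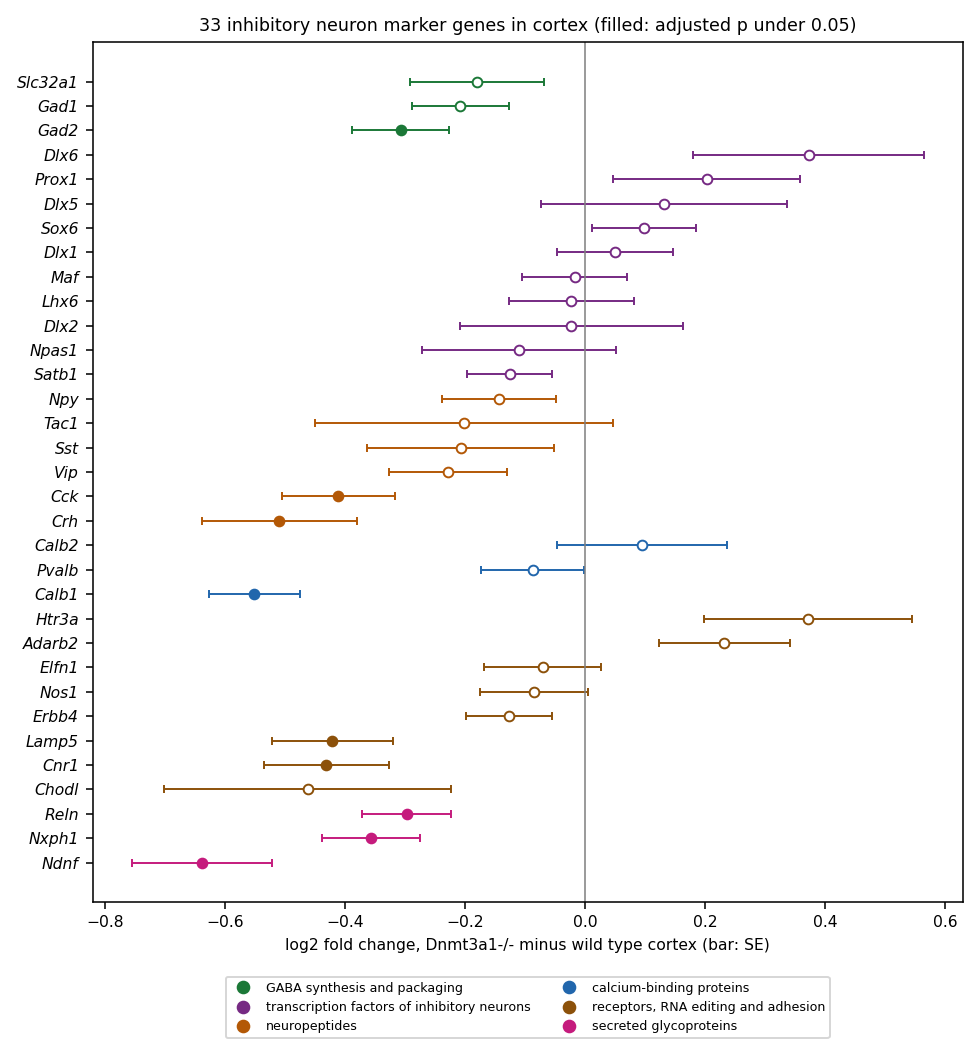
Log2 fold change of each of the 33 markers in Dnmt3a1-/- against wild type cortex (x axis, log2 scale), with bars for the standard error (n = 3 and 3) and filled points for an adjusted p under 0.05. The 9 filled points are all below 0, from -0.64 for Ndnf to -0.30 for Reln, and the 10 transcription factors, in purple, lie from -0.13 to 0.37 with open points.

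Of the genes of GABA synthesis and packaging, Gad2 passed the test. Gad2 encodes the decarboxylase found at nerve terminals, and was 107, 108 and 115 CPM in wild type cortex and 81.5, 87.1 and 97.9 CPM in Dnmt3a1-/- cortex. The groups did not overlap, and its log2 fold change was -0.31 ± 0.08 (SE, edgeR adjusted p = 0.0184). Gad1, the decarboxylase of the cell body that makes most of the GABA, was 191, 214 and 221 CPM in wild type and 166, 191 and 187 CPM in the mutant. The groups touched without overlapping, and the log2 fold change of -0.21 ± 0.08 had an adjusted p of 0.0892 without the block. Without wild type replicate 1 it was called, at -0.29 (adjusted p = 0.0197). Over the 6 libraries left out in turn the value ran from -0.29 to -0.15, and in 5 of these fits Gad1 stayed uncalled (edgeR adjusted p up to 0.3). Slc32a1, the vesicular GABA transporter, was 70.1, 83 and 71.0 CPM in wild type and 55.1, 76.3 and 66.0 CPM in the mutant, overlapping groups with a log2 fold change of -0.18 ± 0.11 (adjusted p = 0.302).

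All 6 neuropeptide genes had a log2 fold change below 0, and Cck and Crh passed the test. Cholecystokinin (Cck) was 187, 229 and 205 CPM in wild type and 139, 174 and 155 CPM in the mutant, without overlap, at -0.41 ± 0.09 on the log2 scale (edgeR adjusted p = 0.0107). Corticotropin-releasing hormone (Crh), a stress peptide also made by interneurons, was 6.26, 7.23 and 6.52 CPM against 4.94, 4.57 and 4.67 CPM. Its libraries did not overlap, and the log2 fold change was -0.51 ± 0.13 (adjusted p = 0.0156), from 58 to 194 reads per library. Somatostatin (Sst) was 143, 164 and 144 CPM in wild type and 109, 166 and 115 CPM in the mutant, where replicate 2 lay above every wild type library. Without the block its log2 fold change was -0.21 ± 0.16 (adjusted p = 0.411). Leaving out that library gave -0.43 ± 0.08 and a call (edgeR adjusted p = 0.00833), and over the 6 libraries left out in turn the value ran from -0.43 to -0.10. Vip was 49.1, 58.4 and 66.0 CPM in wild type and 50.8, 48.5 and 49.2 CPM in the mutant, groups that overlapped only at the lowest wild type library, at -0.23 ± 0.10 (adjusted p = 0.126). Leaving that library out gave -0.35 ± 0.08 and a call (adjusted p = 0.00537). Over the 6 fits that each left out 1 library Vip ran from -0.35 to -0.12, and in 5 of them it stayed uncalled (edgeR adjusted p up to 0.452). Npy and Tac1 were at -0.14 ± 0.09 and -0.20 ± 0.25.

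Among the calcium-binding proteins, which buffer calcium in the cell, Calb1 had the lowest adjusted p of all markers. Calbindin (Calb1) was 73.7, 68.8 and 73.7 CPM in wild type and 54.5, 44.3 and 49.8 CPM in Dnmt3a1-/- cortex, well apart. The log2 fold change was -0.55 ± 0.08 (edgeR adjusted p = 0.000592). Parvalbumin (Pvalb), the marker of fast-spiking interneurons, was 19.7, 19.0 and 18.0 CPM against 16.5, 18.7 and 18.0 CPM. Those groups overlapped, with a log2 fold change of -0.09 ± 0.09 that did not pass edgeR's test (unadjusted p = 0.327), and calretinin (Calb2) was at 0.09 ± 0.14.

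The 3 secreted glycoproteins were all lower. Ndnf, a marker of neurogliaform cells of the outermost layer, was 15.9, 13.6 and 12.7 CPM in wild type and 10.2, 9.18 and 8.08 CPM in the mutant. That is a log2 fold change of -0.64 ± 0.12 (edgeR adjusted p = 0.00277) with no overlap. Nxph1, neurexophilin, a ligand of the synaptic neurexins, was 36.9, 35.8 and 34.3 CPM against 25.6, 30.4 and 27.3 CPM, also apart, at -0.36 ± 0.08 (adjusted p = 0.00959). Reelin (Reln), which guides neuron position and is later made by interneurons, was 62.9, 71.8 and 67.2 CPM against 52.9, 59.2 and 52.5 CPM. Its log2 fold change was -0.30 ± 0.07 (adjusted p = 0.0145), again without overlap.

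Of the 8 receptors, adhesion and other genes of that group, Lamp5 and Cnr1 passed the test. Lamp5, a membrane protein that names a class of interneurons, was 162, 188 and 201 CPM in wild type and 120, 149 and 142 CPM in the mutant, without overlap, at -0.42 ± 0.10 on the log2 scale (edgeR adjusted p = 0.0143). The cannabinoid receptor gene Cnr1, found on terminals of Cck interneurons, was 121, 137 and 141 CPM against 84.7, 97.8 and 113 CPM, likewise apart, at -0.43 ± 0.10 (adjusted p = 0.0151). Nos1, the neuronal nitric oxide synthase, was 28.2, 23.7 and 25.4 CPM against 23.4, 26.3 and 23.1 CPM, overlapping groups at -0.09 ± 0.09 (adjusted p = 0.554). Htr3a, an ionotropic serotonin receptor of Vip and neurogliaform cells, had a log2 fold change of 0.37 ± 0.17 and Adarb2, of the RNA-editing enzyme family, 0.23 ± 0.11. Neither passed the test without the block, and with it Htr3a did and Adarb2 did not. Htr3a was called at 0.55 ± 0.15 without mutant replicate 3 (adjusted p = 0.0284) and was at 0.10 ± 0.15 without mutant replicate 2. Chodl, a marker of long-range inhibitory neurons, was at 12 to 36 reads per library and at -0.46 ± 0.24.

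The transcription factors had a median log2 fold change of 0.02, with 5 of 10 above 0 and 5 below. At an unadjusted p under 0.05 there were 0 of 10 in either direction, and DESeq2 called 0. Lhx6, the factor of Sst and Pvalb cells, was 12.2, 11.0 and 10.2 CPM in wild type and 11.5, 11.2 and 10.4 CPM in the mutant. Its log2 fold change was -0.02 ± 0.10 and that of Dlx1, which keeps interneurons alive, 0.05 ± 0.10. The widest error among the 10 belonged to Dlx5, at 0.13 ± 0.20 from 23 to 48 reads per library.

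**Figure D2:**
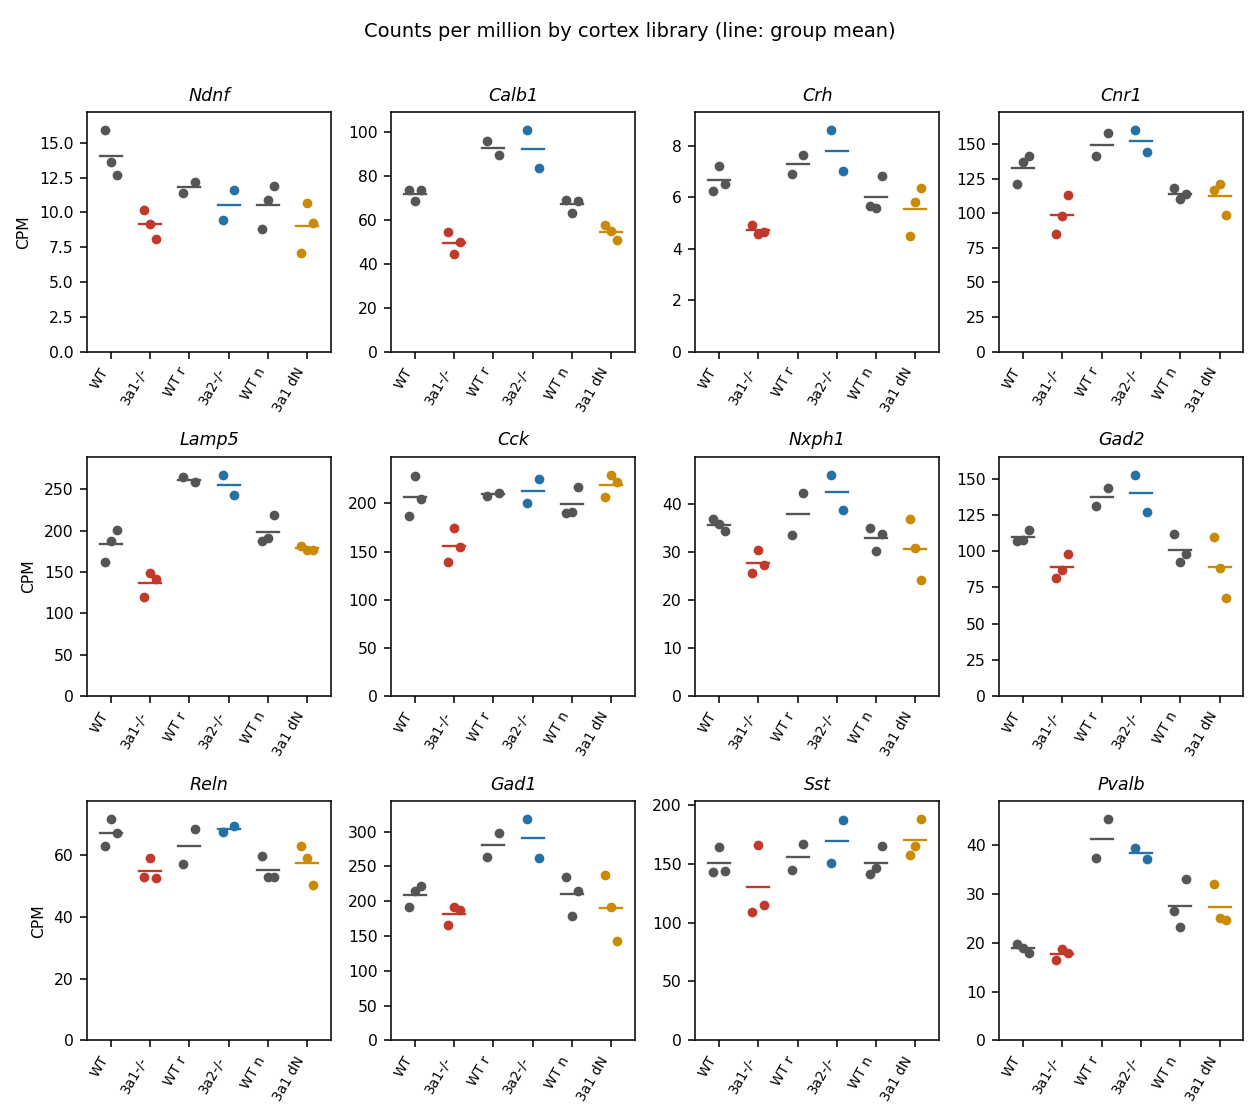
CPM of the 9 called markers and of Gad1, Sst and Pvalb in each of the 16 cortex libraries (points, with a line at the group mean and y axes from 0), by group in the order plain wild type, Dnmt3a1-/-, r wild type, Dnmt3a2-/-, n wild type and Dnmt3a1_delta_N. In the first pair of groups the Dnmt3a1-/- points of Calb1 (44.3 to 54.5 CPM) lie under the wild type points (68.8 to 73.7 CPM), while Pvalb differs more between the wild type series than between mutant and control.

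Promoter windows are shown for 4 of the genes that were lower together and for Sst, since DNMT3A acts on cytosine and these genes differ in how many CG pairs lie at their start. RefSeq windows of 300 bases (250 before the start and 50 after it, build GRCm38.p6) were found for 25 of the 33 markers, 41 windows in all. Capitals mark CG pairs in the windows of Gad2 (chr2:22622077-22622376, plus strand), Reln (chr5:22344656-22344955, minus strand), Cck (chr9:121495645-121495944, minus strand) and Nxph1 (chr6:8949769-8950068, plus strand). In Sst (chr16:23890795-23891094, minus strand) they mark the cAMP response element.
Gad2: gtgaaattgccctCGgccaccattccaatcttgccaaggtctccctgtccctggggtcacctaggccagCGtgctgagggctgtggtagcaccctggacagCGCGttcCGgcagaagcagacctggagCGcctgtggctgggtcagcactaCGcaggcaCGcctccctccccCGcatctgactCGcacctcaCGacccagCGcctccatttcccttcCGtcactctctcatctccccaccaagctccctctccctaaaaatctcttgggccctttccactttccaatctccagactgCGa
Reln: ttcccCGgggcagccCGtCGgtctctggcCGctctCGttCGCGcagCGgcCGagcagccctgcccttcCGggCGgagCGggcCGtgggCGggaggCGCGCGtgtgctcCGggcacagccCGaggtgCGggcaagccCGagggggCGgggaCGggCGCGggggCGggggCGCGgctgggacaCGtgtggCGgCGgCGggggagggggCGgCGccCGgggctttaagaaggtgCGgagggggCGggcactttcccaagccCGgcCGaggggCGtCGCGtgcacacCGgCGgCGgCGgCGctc
Cck: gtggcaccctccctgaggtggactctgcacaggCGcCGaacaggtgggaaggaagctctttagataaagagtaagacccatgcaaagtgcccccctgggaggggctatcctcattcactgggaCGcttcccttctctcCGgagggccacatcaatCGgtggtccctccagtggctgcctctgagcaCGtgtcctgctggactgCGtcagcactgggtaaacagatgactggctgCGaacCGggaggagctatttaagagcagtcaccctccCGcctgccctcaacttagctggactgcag
Nxph1: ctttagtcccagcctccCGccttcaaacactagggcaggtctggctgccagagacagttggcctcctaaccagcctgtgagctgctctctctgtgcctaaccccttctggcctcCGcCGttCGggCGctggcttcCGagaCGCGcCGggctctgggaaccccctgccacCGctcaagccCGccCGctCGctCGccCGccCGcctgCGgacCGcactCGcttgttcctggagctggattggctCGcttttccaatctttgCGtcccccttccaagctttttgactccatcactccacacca
Sst: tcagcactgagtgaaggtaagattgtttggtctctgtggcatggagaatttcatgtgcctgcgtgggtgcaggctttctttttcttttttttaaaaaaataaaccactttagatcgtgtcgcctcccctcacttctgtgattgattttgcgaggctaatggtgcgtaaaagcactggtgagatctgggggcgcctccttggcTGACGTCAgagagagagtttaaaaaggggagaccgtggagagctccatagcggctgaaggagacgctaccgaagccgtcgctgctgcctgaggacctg
The window of Reln holds 47 CG pairs, that of Nxph1 21, that of Gad2 14 and that of Cck 10. Over the 6 called markers with a window (9 windows) the number ran from 2 to 47 with a median of 14, and over the 19 others (32 windows) from 2 to 45 with a median of 13. The median over all 32851 windows was 7. Calb1, Crh and Ndnf, which were also called, had no window. Some genes had several windows, so these ranges and medians are over windows and not over genes. Whether the CG number bears on the calls was not tested. The element TGACGTCA, searched on both strands, was found in 1 of the 41 marker windows, that of Sst, and in 1.79% of all windows.

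Genes that handle GABA after its release and further interneuron genes showed calls in both directions in Dnmt3a1-/- cortex. These 2 lists were chosen beside the markers with earlier results of these data known. Of all genes tested there, 8.91% were called lower and 8.95% higher. Of 11 genes of GABA uptake, breakdown, synapse scaffold and chloride transport, 3 were lower and 1 was higher, with a median log2 fold change of -0.13. Among the lower ones were Slitrk3, an inhibitory synapse adhesion protein (36.9 ± 2.97 CPM in wild type and 27.2 ± 3.75 in the mutant, SD, n = 3), and Slc12a5, the chloride exporter KCC2, at -0.26 ± 0.08 on the log2 scale (edgeR adjusted p = 0.0451). Abat, the transaminase that breaks GABA down, was higher at 0.21 ± 0.06 (edgeR adjusted p = 0.0360). Of 25 further interneuron genes tested, 7 were lower and 1 was higher, with a median of -0.03. The 4 with the smallest p were Kcnc2 at -0.41 ± 0.07, Kit at -0.46 ± 0.08, Kcnc1 at -0.42 ± 0.08 and Syt2 at -0.46 ± 0.10. Kcnc1 and Kcnc2 encode the Kv3 potassium channels that let fast-spiking neurons fire rapidly, Syt2 a synaptotagmin of their terminals, and Kit a receptor kinase. Their adjusted p lay between 0.00139 and 0.0064. In the other 4 mutant comparisons 0 genes of either list were called by edgeR, beside at most 2.52% of all genes (hippocampus). At an unadjusted p under 0.05 there were then up to 1 gene of the first list and up to 6 of the second in a comparison. Of all genes, 2.87% (Dnmt3a2-/-) to 18% (hippocampus) were under that threshold.

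Markers of other cells moved beside these genes, and their part in the results was not tested. Of 7 general neuron markers 2 were lower (Syt1 and Tubb3), and the summed level of the list was 4610 to 4980 CPM in wild type and 4130 to 4180 CPM in Dnmt3a1-/- cortex. Of 12 excitatory neuron markers 2 were lower and 1 higher, with overlapping sums of 5640 to 5670 and 5400 to 5860 CPM. Oligodendrocyte markers had 2 of 6 higher (16000 to 18900 against 18500 to 22000 CPM). Astrocyte markers had 3 of 7 higher and 1 lower, with sums of 5100 to 5410 and 5370 to 5620 CPM, and endothelial markers 2 of 6 lower, with sums of 483 to 556 and 461 to 532 CPM. Dentate granule cell markers had 2 of 6 higher and 1 lower, and their sums of 13.3 to 16.8 CPM in wild type and 19.4 to 23.6 CPM in the mutant did not overlap. Thalamic markers had 1 of 6 higher, and their sums of 175 to 191 and 197 to 212 CPM did not overlap either. Of the microglial and oligodendrocyte precursor markers 0 were called by edgeR, with 1 of each list higher at an unadjusted p under 0.05. Choroid plexus markers, with 0 of 7 called by edgeR, summed to 121 to 747 CPM in wild type and 820 to 2000 CPM in the mutant. Striatal markers, with 1 of 10 lower, summed to 439, 471 and 523 CPM in wild type and 235, 385 and 567 CPM in mutant replicates 1, 2 and 3. Tac1, the substance P gene that striatal neurons also express, was 16.0, 24.2 and 32.1 CPM in the same mutant libraries, in the same order, and 25.2, 29.9 and 29.8 CPM in wild type. No defining marker of the striatal or choroid plexus list was at 0 in these groups.

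In Dnmt3a2-/- cortex, 0 of 33 markers were called by edgeR, as were 0.00628% of all genes tested, and DESeq2 called 0. At an unadjusted p under 0.05 there were 2 higher, Tac1 and Chodl, beside 2.87% of all genes in either direction. Libraries did not overlap for 6 higher and 3 lower markers, 27.4% of all genes doing so in either direction, 14.8% higher and 12.7% lower. Tac1 was 22.7 and 26.8 CPM in the r wild type and 30.4 and 36.7 CPM in the mutant, a log2 fold change of 0.43 ± 0.12. Without mutant replicate 1 its value was 0.55, which rests on 1 mutant library with no spread of its own. All 10 striatal markers had a log2 fold change above 0 in the same comparison, with a median of 0.35, 3 of them at an unadjusted p under 0.05 and 4 without overlap. The striatal list summed to 431 and 482 CPM in wild type and 481 and 594 CPM in the mutant, and its part in the Tac1 value was not tested. Calb1 was 96.1 and 89.5 CPM in the r wild type and 101 and 83.6 CPM in the mutant, overlapping groups at -0.02 ± 0.11. Of the 9 markers called in Dnmt3a1-/- cortex, the log2 fold changes here ran from -0.18 (Ndnf) to 0.16 (Nxph1). Cck was 208 and 211 CPM in wild type and 200 and 225 CPM in the mutant. Crh was 6.92 and 7.66 CPM against 8.62 and 7.02 CPM. Ndnf was 11.4 and 12.2 CPM against 9.43 and 11.6 CPM. In these 3 genes the groups overlapped. Nxph1 was 33.5 and 42.2 CPM against 46.1 and 38.8 CPM, Reln 57.3 and 68.7 against 67.6 and 69.5 CPM, and Lamp5 265 and 259 against 268 and 243 CPM. Cnr1 was 141 and 158 CPM against 160 and 144 CPM, and these 4 overlapped too. Nos1 was 25.6 and 24.9 CPM against 20.9 and 23.2 CPM, without overlap, at -0.20 ± 0.11. Gad1 was 264 and 298 CPM against 318 and 262 CPM, Gad2 131 and 144 against 153 and 127 CPM, and Slc32a1 65.1 and 69.3 against 70.7 and 84.2 CPM. Only the Slc32a1 groups did not overlap. Sst was 145 and 167 against 151 and 187 CPM, Vip 64.8 and 66.7 against 77.1 and 71.8 CPM, and Pvalb 37.3 and 45.4 against 39.5 and 37.2 CPM. The groups of Vip did not overlap, those of Sst and Pvalb did, and none of these 6 genes passed the test.

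In Dnmt3a1_delta_N cortex, 0 of 33 markers were called without the block by edgeR, as were 0% of all genes, and DESeq2 called 0. Calb1 was 69.2, 63.4 and 68.7 CPM in the n wild type and 57.8, 54.9 and 50.7 CPM in the mutant, groups that did not overlap. The log2 fold change was -0.29 ± 0.07 (adjusted p = 0.462, unadjusted p = 0.00186). Same-numbered libraries deviated together here too, which was again taken as pairing from the same counts. With the block Calb1 was called by edgeR at an adjusted p of 0.0466, the 1 marker that was, beside 0.542% of all genes called lower. Dlx5 was the other marker at an unadjusted p under 0.05, at 0.40 ± 0.17, higher, beside 7.98% of all genes in either direction. Libraries did not overlap for 2 higher and 2 lower markers, beside 5.74% and 7.07% of all genes. Gad1 was 235, 179 and 215 CPM in wild type and 238, 191 and 142 CPM in the mutant, and Gad2 112, 92.4 and 98.3 against 110, 88.5 and 67.9 CPM. In both, mutant replicate 3 was the lowest of the 6 libraries. Lamp5 was 187, 191 and 219 CPM in wild type and 182, 177 and 177 CPM in the mutant, without overlap, at -0.14 ± 0.08. Crh was 5.67, 5.59 and 6.84 CPM against 4.48, 5.83 and 6.35 CPM, and Ndnf 8.82, 10.9 and 11.9 against 7.08, 10.7 and 9.20 CPM. Both overlapped, as did the next 4 genes. Nxph1 was 35.0, 30.1 and 33.8 CPM against 36.9, 30.8 and 24.2 CPM, and Reln 59.8, 53.0 and 53.0 against 63.1, 59.3 and 50.5 CPM. Cnr1 was 118, 110 and 114 CPM against 117, 121 and 99.0 CPM, and Nos1 26.7, 26.5 and 26.3 against 24.9, 28.8 and 21.1 CPM. Slc32a1 (72.1, 68.4 and 75.5 against 80.8, 78.5 and 63.8 CPM), Pvalb (26.5, 23.2 and 33 against 32.0, 25.1 and 24.7 CPM), Sst (141, 146 and 165 against 157, 165 and 188 CPM) and Vip (52.7, 53.5 and 56.6 against 60.4, 51.5 and 59.4 CPM) overlapped between groups.

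**Figure D3:**
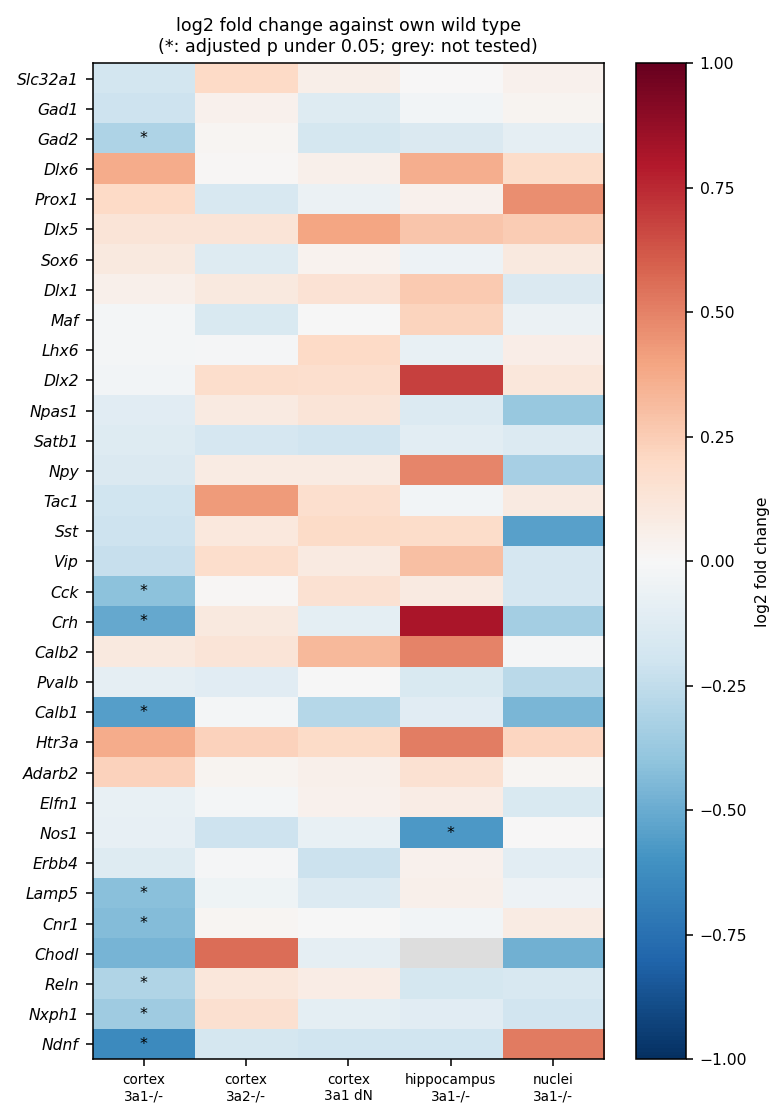
Log2 fold change (colour, from -1 to 1) of each marker in the 5 comparisons of a mutant with its own wild type, with an asterisk at an adjusted p under 0.05. There are 9 asterisks in the first column, 1 in the hippocampus column (Nos1) and 0 in the other columns.

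In Dnmt3a1-/- hippocampus, Nos1 was the 1 marker called, among 32 tested. It was 50.4, 68.6 and 75.1 CPM in wild type and 49.1, 46.7 and 37.9 CPM in the mutant, so the lowest wild type library lay just above the highest mutant one. The log2 fold change was -0.58 ± 0.13 (edgeR adjusted p = 0.0433). Of all genes 2.52% were called, 0.827% lower and 1.69% higher, and DESeq2 also called Nos1 alone among the markers. Libraries did not overlap for 4 higher markers and 1 lower, beside 13.9% and 8.34% of all genes (22.3% in either direction). Chodl was not tested, with 0 to 4 reads per library. The call of Nos1 was lost on leaving out any 1 of 5 of the 6 libraries, with edgeR adjusted p between 0.0682 and 0.152. In wild type, Nos1 was 1.29 ± 0.10 higher on the log2 scale in hippocampus than in cortex, while Gad1, Gad2 and Slc32a1 were lower. Which cells the Nos1 RNA came from was not tested.

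Of the 9 markers lower in Dnmt3a1-/- cortex, 0 were called in hippocampus, where their log2 fold changes ran from -0.20 (Ndnf) to 0.82 (Crh). Crh was 0.691, 1.12 and 0.751 CPM in wild type and 1.67, 1.16 and 1.85 CPM in the mutant, without overlap, from 6 to 43 reads (adjusted p = 0.194). Calb1 was 37.2, 46.8 and 51 CPM against 48.0, 34.2 and 45.4 CPM, and Cck 103, 147 and 124 CPM against a mutant mean of 135 ± 15.1 (SD, n = 3). Ndnf was 29.5, 32.1 and 26.3 CPM against 29.9, 24.5 and 23.9 CPM, and Nxph1 13.6, 23.2 and 19.5 against 20.7, 17.0 and 16.4 CPM. Reln was 51.6, 70.7 and 50.8 CPM against 62.0, 50.9 and 44.7 CPM, and Lamp5 18.2, 23.3 and 26.3 against 26.8, 22.6 and 22.8 CPM. All 6 of these overlapped between groups. Calb2 was 22.7, 18.9 and 14.7 against 30.3, 22.8 and 26.7 CPM, a log2 fold change of 0.49 ± 0.15 (adjusted p = 0.0940). Npy was 16.8, 30.8 and 20.7 against 30.4, 34.3 and 33.7 CPM, overlapping at 1 library, at 0.49 ± 0.18 (adjusted p = 0.180).

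Wild type hippocampus replicate 1 stood apart in many of these genes. Gad1 was 103 CPM there and 168 and 162 CPM in the other wild type libraries, against 160, 139 and 135 CPM in the mutant. Gad2 was 45.3, 76.8 and 74.1 against 62.4, 59.4 and 59.9 CPM, Slc32a1 27.1, 43.1 and 49.1 against 43.7, 48.4 and 31.7 CPM, and Cnr1 76.1, 154 and 156 CPM against a mutant mean of 129 ± 12 (SD, n = 3). In these 4 genes replicate 1 was the lowest of the 6 libraries. Sst was 48.9, 109 and 77.0 against 86.2, 112 and 75.7 CPM, Vip 8.87, 13.1 and 13.8 against 16.0, 13.6 and 15.8 CPM, and Pvalb 7.72, 11.5 and 11.5 against 8.54, 9.16 and 10.5 CPM. The same library was lowest in those 3 genes. Dentate granule cell markers summed to 182 CPM in it and to 151 CPM in both other wild type libraries, and general neuron markers to 3900 against 4770 and 4950 CPM. Without it, 2 markers were lower (Nos1 and Gad2, at -0.34 ± 0.08) and 1 was higher (Calb2, at 0.63 ± 0.14), beside 2.68% and 2.21% of all genes. What sets this library apart was not tested. Choroid plexus markers summed to 75.9 to 104 CPM in wild type hippocampus and to 545, 1830 and 58.1 CPM in the mutant, and their part in these results was not tested either.

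**Figure D4:**
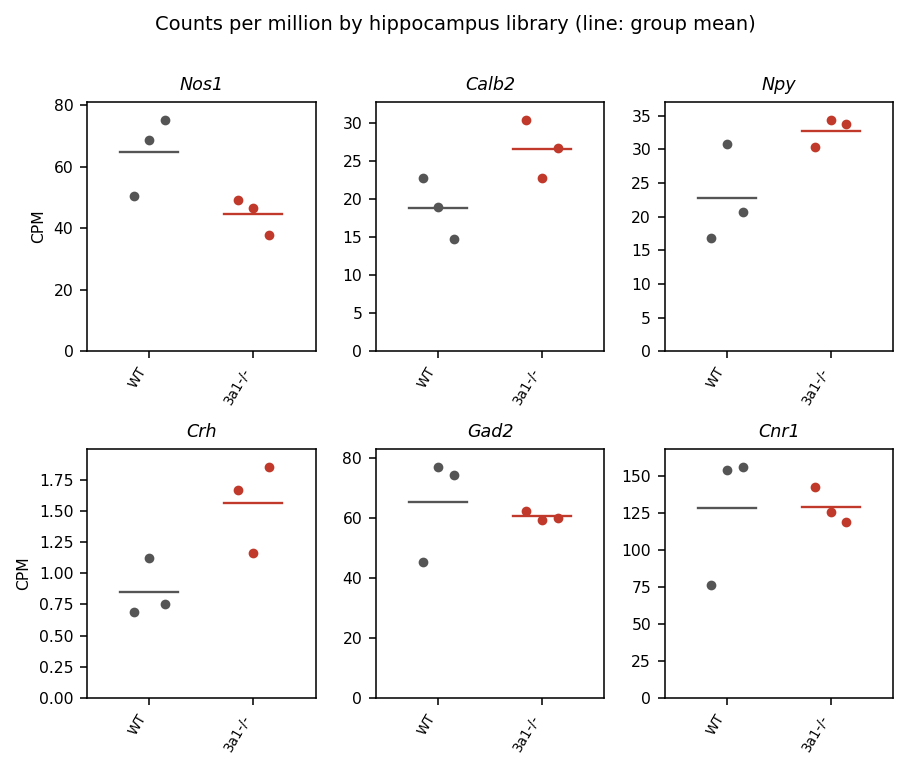
CPM of 6 markers in each hippocampus library (points, line at the group mean, y axes from 0), wild type on the left and Dnmt3a1-/- on the right. Nos1 lies lower in the mutant (37.9 to 49.1 CPM) than in wild type (50.4 to 75.1 CPM), and the lowest wild type points of Gad2 (45.3 CPM) and Cnr1 (76.1 CPM) belong to replicate 1.

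In the neuron nuclei labelled Dnmt3a1-/-, 0 of 33 markers were called without the block by edgeR and DESeq2 called 0, beside 0.246% of all genes. At an unadjusted p under 0.05 there were 4 lower and 0 higher, beside 8.98% of all genes in either direction. Libraries did not overlap for 4 higher and 6 lower markers, beside 38.5% of all genes in either direction and 19.6% lower. Sst was 48.7 and 67.0 CPM in wild type and 43.5 and 35.6 CPM in the labelled libraries, without overlap, at -0.54 ± 0.16 (adjusted p = 0.244). Calb1 was 116 and 116 against 78.1 and 90.7 CPM, without overlap, at -0.46 ± 0.14 (adjusted p = 0.246). Gad1 was 252 and 311 against 289 and 284 CPM, Gad2 118 and 158 against 121 and 138 CPM, and Slc32a1 26.7 and 40.7 against 35.9 and 33.2 CPM, with the labelled libraries inside the wild type range in all 3. Vip was 54.9 and 69.1 against 53.4 and 56.9 CPM, and Pvalb 10.5 and 13.4 against 9.81 and 10 CPM, which did not overlap. Cck was 55.7 and 74.2 against 57.9 and 57.2 CPM, Crh 5.29 and 8.50 against 5.58 and 5.26 CPM, and Nxph1 23.7 and 37.0 against 24.5 and 28.6 CPM. Lamp5 was 158 and 152 against 157 and 142 CPM, Cnr1 273 and 301 against 264 and 342 CPM, and Nos1 23.5 and 24.5 against 25.9 and 22.2 CPM. These 6 overlapped, while Reln, 85.6 and 91.7 against 73.8 and 84.6 CPM, did not. Striatal markers, with 0 of 10 called by edgeR, summed to 993 to 1030 CPM in wild type nuclei and 1070 to 1230 CPM in the labelled ones. Their part in the marker values was not tested. Since Dnmt3a did not follow the label, these values compare the libraries as labelled.

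The 4 differences between effects were tested directly, each as an interaction in 1 edgeR fit, and all 4 use the same cortex Dnmt3a1-/- effect. Called markers numbered 0 of 33 in each, beside 0% of all genes for hippocampus, 0.341% for nuclei, 0.103% for Dnmt3a1_delta_N (0.0182% higher and 0.0851% lower) and 0.205% for Dnmt3a2-/- (0.0843% lower). At an unadjusted p under 0.05 there were 8, 3, 5 and 12 of the 33 markers in the same order, beside 5.03%, 13.8%, 11.4% and 12.7% of all genes. The lowest adjusted p were those of Crh between hippocampus and cortex (0.547), Ndnf between nuclei and cortex (0.0505), Cck between Dnmt3a1_delta_N and Dnmt3a1-/- (0.137) and Calb1 between Dnmt3a2-/- and Dnmt3a1-/- (0.124). Ndnf was 2.27 and 3.62 CPM in wild type nuclei and 4.23 and 4.19 CPM in the labelled ones, a difference of effects of 1.16 ± 0.25 on the log2 scale. Calb1 differed by 0.53 ± 0.14. With the replicate block, 4 markers differed between Dnmt3a1_delta_N and Dnmt3a1-/- (Cck, Cnr1, Reln and Sst), beside 2.91% of all genes. Cck, 190, 191 and 217 CPM in the n wild type and 207, 230 and 222 CPM in Dnmt3a1_delta_N, then differed by 0.57 ± 0.07 (adjusted p = 0.000657). The block here was chosen after the data were seen.

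In wild type mice most markers differed between hippocampus and cortex. Hippocampus and cortex also differ in library series and annotation, which cannot be told apart from tissue here. In hippocampus 7 of 33 markers were higher and 21 lower than in the 8 wild type cortex libraries, beside 42.0% of all genes called in either direction. Prox1, which marks dentate granule cells as well as Vip-class interneurons, was 100, 85.3 and 80.5 CPM in hippocampus and 3.71 to 5.64 CPM (median 4.43) in cortex, 4.24 ± 0.11 higher on the log2 scale (edgeR adjusted p = 1.1e-12). The 6 dentate granule cell markers were all higher too, with a median of 3.90. Calb2 was 1.63 ± 0.12 higher, Nos1 1.29 ± 0.10, Ndnf 1.24 ± 0.14, Adarb2 0.67 ± 0.09, Htr3a 0.53 ± 0.15 and Npas1, a factor of Vip-class and related cells, 0.52 ± 0.12. All 6 neuropeptides were lower in hippocampus, with a median of -2.31. They ranged from Crh at -2.92 ± 0.19 to Cck at -0.75 ± 0.11. Lamp5 was 18.2, 23.3 and 26.3 CPM in hippocampus and 162 to 265 CPM in cortex (-3.23 ± 0.18). The 3 genes of GABA synthesis and packaging were lower, Gad1 at -0.68 ± 0.17, Gad2 at -0.82 ± 0.17 and Slc32a1 at -0.87 ± 0.14. Lhx6, Sox6, Cnr1, Elfn1 and Reln were not called. Elfn1 encodes a synaptic protein of Sst interneurons.

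In wild type neuron nuclei 9 markers were higher and 14 lower than in wild type cortex tissue, beside 79.4% of all genes. Glial and vascular markers were depleted, with medians of -5.66 for astrocytes, -5.96 for oligodendrocytes, -6.72 for microglia and -6.89 for endothelium. Striatal markers had 5 of 10 higher and 1 lower, beside 39.7% of all genes in each direction. The striatal list summed to 993 to 1030 CPM in nuclei. In cortex it summed to 439 to 523 CPM (plain series), 431 to 482 CPM (r) and 416 to 540 CPM (n). Its part in the marker values was not tested. Gad1 and Gad2 had differences of 0.05 ± 0.16 and 0.02 ± 0.15, while Slc32a1 was 26.7 and 40.7 CPM in nuclei and 65.1 to 83 CPM in cortex (-1.36 ± 0.14, edgeR adjusted p = 7.98e-07). Adarb2 was 1.92 ± 0.09 higher in nuclei, Dlx6 1.88 ± 0.13 and Dlx5 1.43 ± 0.14. Dlx6os1, an RNA transcribed antisense to Dlx6 and named after its values were seen, was 17.0 and 21.0 CPM in nuclei and 12.8 to 18.0 CPM in cortex. Since the strand setting of the counting is not given in the sources used here, reads of Dlx6 and Dlx6os1, or of Dlx1 and its antisense RNA, may be shared, and these 2 values are uncertain. Ndnf at -2.31 ± 0.23, Sox6 at -1.95 ± 0.12, Cck at -1.92 ± 0.13, Sst at -1.66 ± 0.12, Pvalb at -1.48 ± 0.36 and Npy at -1.25 ± 0.12 were lower in nuclei. Maf and Prox1 were at -1.28 ± 0.14 and -1.06 ± 0.19. With library totals in place of TMM factors the median of all genes moved from -0.03 to 0.23, and Vip changed sign, from -0.18 to 0.09.

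**Figure D5:**
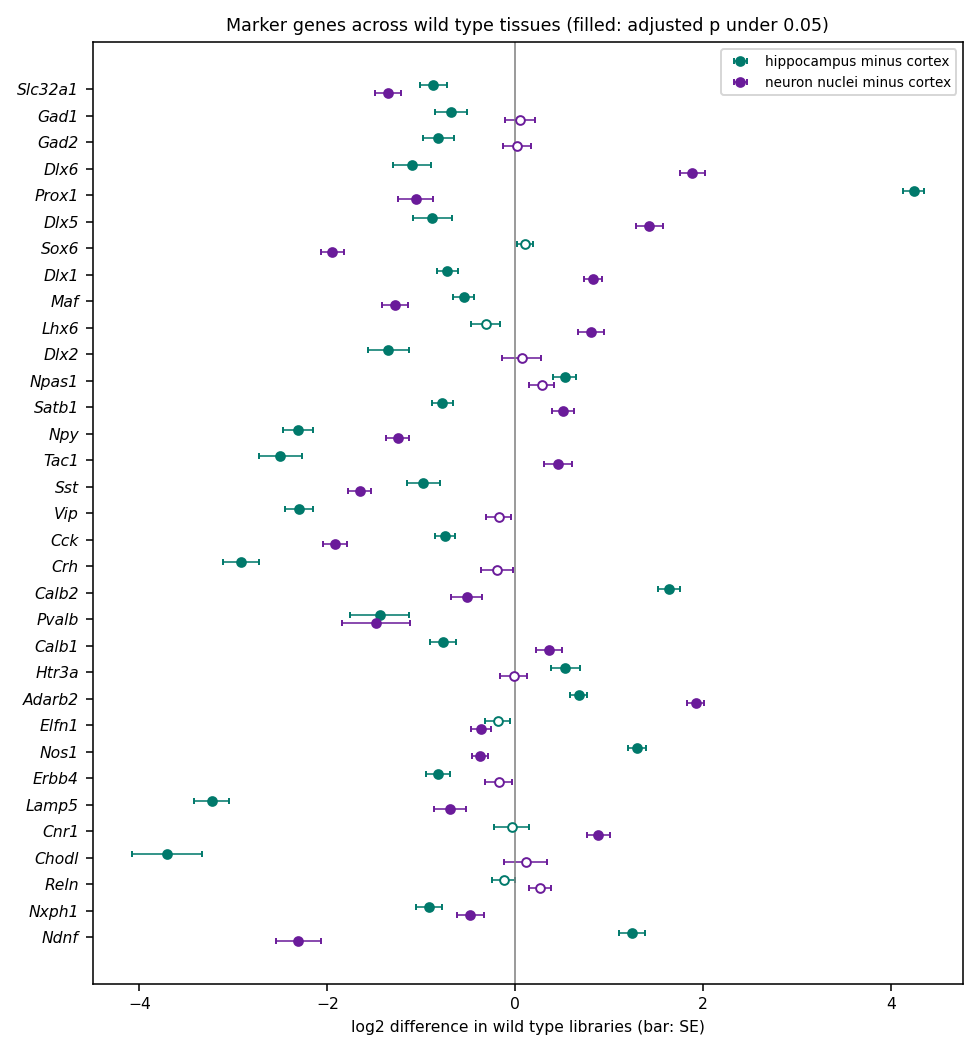
Log2 difference of each marker between wild type hippocampus (n = 3, green) or neuron nuclei (n = 2, purple) and wild type cortex (n = 8), with bars for the standard error and filled points for an adjusted p under 0.05. Prox1 lies at 4.24 in hippocampus and -1.06 in nuclei, and Ndnf at 1.24 and -2.31.

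Some markers also differed among the wild type cortex series. Between the plain and the r series 8 markers were called (1 higher and 7 lower in the plain series, 31.7% of all genes). Plain against n gave 5 (22.8%) and r against n 8 (25.6%). Higher in the plain than the n series were Ndnf (0.46 ± 0.12), Reln (0.33 ± 0.07), Cnr1 (0.26 ± 0.07) and Sox6, and Pvalb was lower. In Dnmt3a1-/- cortex Reln (52.5 to 59.2 CPM) and Ndnf (8.08 to 10.2 CPM) overlapped the n series (53 to 59.8 and 8.82 to 11.9 CPM). Cnr1, Gad2 and Nxph1 overlapped that series too, while Calb1, Cck, Crh and Lamp5 did not. Pvalb was 19.7, 19.0 and 18.0 CPM in the plain series, 37.3 and 45.4 CPM in the r series and 26.5, 23.2 and 33 CPM in the n series. No series overlapped another in Pvalb, and plain minus r was -1.09 ± 0.13 on the log2 scale (edgeR adjusted p = 0.000127). Lamp5 was 265 and 259 CPM in the r series, above the 162 to 219 CPM of the other 6 libraries, and Calb1 96.1 and 89.5 CPM against 63.4 to 73.7 CPM. Gad1 at 264 and 298 CPM and Gad2 at 131 and 144 CPM were also highest there. Against all 8 wild type libraries as 1 group, Calb1, Cck, Cnr1, Crh, Lamp5 and Nxph1 were still called lower in Dnmt3a1-/- cortex. Gad2 (edgeR adjusted p = 0.0709), Ndnf (0.0852) and Reln (0.314) were not called and Htr3a was higher (0.0334). The share of all genes called in that fit is not given here, so these calls are not set against it.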

How the data were processed

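The rows are mouse RNA counts: whole-number reads per gene, deposited by the authors with 1 library per file. Per the submitters' processing notes, STAR 2.5.4a, HTSeq 0.11.0 and build mm9 were used. Per the labels' protocols, libraries came from a stranded mRNA kit and nuclei were sorted with an antibody against NeuN. Annotation release and strand setting are not given in the sources used here. Between 21.14% and 36.97% of reads lay in lines that name no gene and were left out. The other 49 of 75 samples were not analysed here.

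CPM is the count over the gene total of a library, times 1e6. Tests used edgeR 4.0.16 (quasi-likelihood, TMM, filterByExpr, R 4.3.3) with Benjamini-Hochberg adjustment over all genes, and standard errors were derived from the F statistic. DESeq2 1.42.0 was an alternative. The procedure was tested on simulated data. Replicate pairs differed by 6.32 to 37.6 times counting noise (chi-square per degree of freedom), so all were kept as separate replicates. In cortex, deviations from group means of same-numbered libraries correlated at 0.222 to 0.402 (Dnmt3a1-/-) and 0.244 to 0.435 (Dnmt3a1_delta_N). All were above 0.1, which was taken as pairing. The labels do not say what the numbers share. In nuclei the value was 0.385 for the same number and -0.385 for different numbers, which 2 libraries per group always make opposite. Contrasts of hippocampus with cortex used the 32601 shared identifiers, and those of nuclei with cortex the 37310 of both sets of files. Members and gene lists were chosen with earlier results of these data known. Levels are given by library for Gad1, Gad2, Slc32a1, Pvalb, Sst, Vip and the members called in a mutant comparison, except Cnr1 and Cck in mutant hippocampus, which are given as means. From each of the 2 further lists up to 4 called genes with the smallest p were named, by fold change or mean, and 1 is not reported here; other genes and libraries were named after their values were seen. Promoter windows come from RefSeq (GRCm38.p6), and none of their coordinates were matched to the counts.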

Additional observations from a re-analysis of the deposited data

Results flagged for a closer look

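Dlx5 had 1 library far from the others among the 8 wild type cortex libraries. Replicate 3 of the plain series was at 1.35 CPM, from 24 reads, the nearest library at 1.61 CPM and the highest at 1.83 CPM, so that its gap to the nearest was 0.542 of the whole range, above Dixon's critical value. It was 1 of 33 genes tested this way, and chance flags about 1 in 20.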

How the results depend on the processing

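In Dnmt3a1-/- cortex, Calb1, Cck and Nxph1 were called lower under all 12 alternatives, Lamp5 and Ndnf under 11, Cnr1 and Crh under 10, and Gad2 and Reln under 8. Leaving out 1 library gave 5 to 11 lower and 0 to 1 higher, beside 1599 to 2725 of all genes called in either direction. The marker called higher was Htr3a: 1 with the replicate block, and 1 against all 8 wild type libraries. Without the filter on low counts Gad1 and Vip were added. The cause was not tested. Where a group of 2 lost a library, the other was assumed to vary like the other groups.

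Markers called in the other comparisons changed as follows. In Dnmt3a2-/- and in nuclei, leaving out 1 library leaves 1 in a group, so calls of those fits are not counted here. In Dnmt3a1_delta_N the replicate block gave 1 lower. In hippocampus library totals and the block, where numbers do not pair the libraries, each gave 0 lower, and no filter gave 3 higher. Leaving out 1 library gave 0 to 2 lower and 0 to 1 higher, beside 86 to 783 of all genes called in either direction. In nuclei no filter gave 1 lower (Sst). The block, with 2 pairs whose shared number the labels do not explain, gave 2 lower (Sst and Calb1). For the differences of effects, no filter gave 2 for nuclei, 1 for Dnmt3a1_delta_N and 7 for Dnmt3a2-/-, and the block 4 for Dnmt3a1_delta_N. Shares of all genes called are not given for the fits without the filter or with library totals. Their counts show how the calls depend on the setting and are no result about the markers.

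Uncalled log2 fold changes near 0 changed sign. On leaving out 1 library they ran, in Dnmt3a2-/-, from -0.12 to 0.18 (Gad1), -0.14 to 0.16 (Gad2), -0.0466 to 0.24 (Sst), -0.23 to 0.0152 (Pvalb) and -0.17 to 0.12 (Calb1), and in Dnmt3a1_delta_N from -0.32 to 0.031 (Gad1) and -0.13 to 0.15 (Pvalb). In hippocampus they ran from -0.22 to 0.0874 (Gad1), -0.19 to 0.18 (Slc32a1), -0.0534 to 0.49 (Sst) and -0.22 to 0.0183 (Calb1), and in nuclei from -0.10 to 0.18 (Gad1), -0.27 to 0.12 (Gad2) and -0.22 to 0.37 (Slc32a1). Against all 8 wild type libraries Pvalb was 0.45 and Calb1 0.27 in Dnmt3a2-/-, and Vip -0.0354 in Dnmt3a1_delta_N. With the replicate block Pvalb was 0.0062 in Dnmt3a1_delta_N and Gad1 0.0019 in hippocampus, and RLE factors gave Slc32a1 -0.0015 in hippocampus. Library totals gave Vip 0.0852 in wild type nuclei against cortex.

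Depth limited Chodl, Crh in hippocampus and Dlx5, which rest on few reads, and groups of 2 or 3 libraries limited all tests.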
